A study of Mus musculus with 3 samples.

Results

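The 42 genes described here are cell cycle and DNA replication genes, chosen by name for their known roles: the cyclins and their kinases, the Rb and E2F proteins, the factors that load and run the replication machinery, and the kinases, motors and chromosome proteins of mitosis. All 42 were found among the 55536 genes of the tables, and all are among its 21938 protein-coding genes outside the mitochondrial genome. The libraries were total RNA-seq of the chromatin fraction, the RNA that stays attached to chromatin when cells are fractionated and that is rich in transcripts still being made. The cells were bone marrow-derived macrophages of the mouse strain C57BL/6J, primary cells kept for 60 minutes in 100 ng/ml Lipid A, the part of bacterial lipopolysaccharide that activates the receptor TLR4. There were 3 libraries, labelled biological replicates 1, 2 and 3 and made from 1 µg, 250 ng and 500 ng of starting RNA. All 3 carry the same donor entry, so their spread may be partly technical. The series as used here has 1 group and no unstimulated cells, so levels can be described but no response to Lipid A can be read.

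Cells enter the cycle when D-type cyclins switch on Cdk4 and Cdk6, which phosphorylate the Rb protein and so free E2F transcription factors to transcribe genes for DNA synthesis. Mitotic genes are transcribed later in the cycle, and many of them carry CCAAT boxes and cell cycle homology regions (CHR) in their promoters. Through the CHR, the DREAM complex keeps such genes silent in resting cells. Bone marrow precursors divide under the growth factor CSF1 as they become macrophages, and activation through TLR4 is known to slow that division.

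Gene totals were 13318395, 15352661 and 15812581 estimated counts in replicates 1, 2 and 3, and a count of 3, taken as the floor, was worth 0.225, 0.195 and 0.190 CPM (counts scaled to the size of the library). Levels are TPM, a share of transcripts that is scaled by transcript length and so can be compared between genes. Of 8 macrophage markers 8 had a TPM of at least 1 in every library, with summed TPM of 389, 551 and 429, the highest being the mannose receptor Mrc1. Of 7 marrow progenitor markers none did, with summed TPM of 1.57, 1.55 and 0.98, Kit being highest and 2 of them, Ctsg included, at 0 throughout. The lists for neutrophils, erythroid cells, T cells, B cells and fibroblasts had summed TPM between 0 and 1.96 in any library, with 3 of 5, 4 of 5, 3 of 5, 2 of 5 and 0 of 5 genes at 0 throughout. The fibroblast markers Col1a1, Col1a2 and Col3a1, named after their values were seen, had 0 counts in replicate 1 of the gene table. In replicates 2 and 3 they had 35 and 36, 31 and 35, and 15 and 18 counts, at a TPM of at most 0.58. The second transcript tables, described further below, gave more: 2 marrow progenitor, 3 T cell, 1 B cell and 1 fibroblast marker reached a TPM of 1 in every library there. The highest of these, the T cell gene Cd3d, named after its values were seen, was at 20.4, 26.7 and 27.9 against 0 in the gene table.

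The cell cycle genes spanned a wide range on chromatin. A TPM of at least 1 in every library was reached by 14 of 42 (33.3%), near the background of 35.8% of all nuclear coding genes. The mean TPM was under 1 for 18 genes, from 1 to 10 for 20 and at 10 or more for 4. Those 4 were Cdk6, Mki67, Rb1 and Pcna, and they held 80.9% of the summed level of the 42. The median log2(TPM + 1) of the 42 was 0.74, 1.32 and 0.88 in replicates 1, 2 and 3, a mean of 0.98 ± 0.30 (SD, n = 3), beside 0.30 ± 0.07 for all nuclear coding genes. In the second set of tables, which summed transcripts under another estimate, 26 of the 42 reached a TPM of 1 throughout, beside a background of 50.0%.

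**Figure D1:**
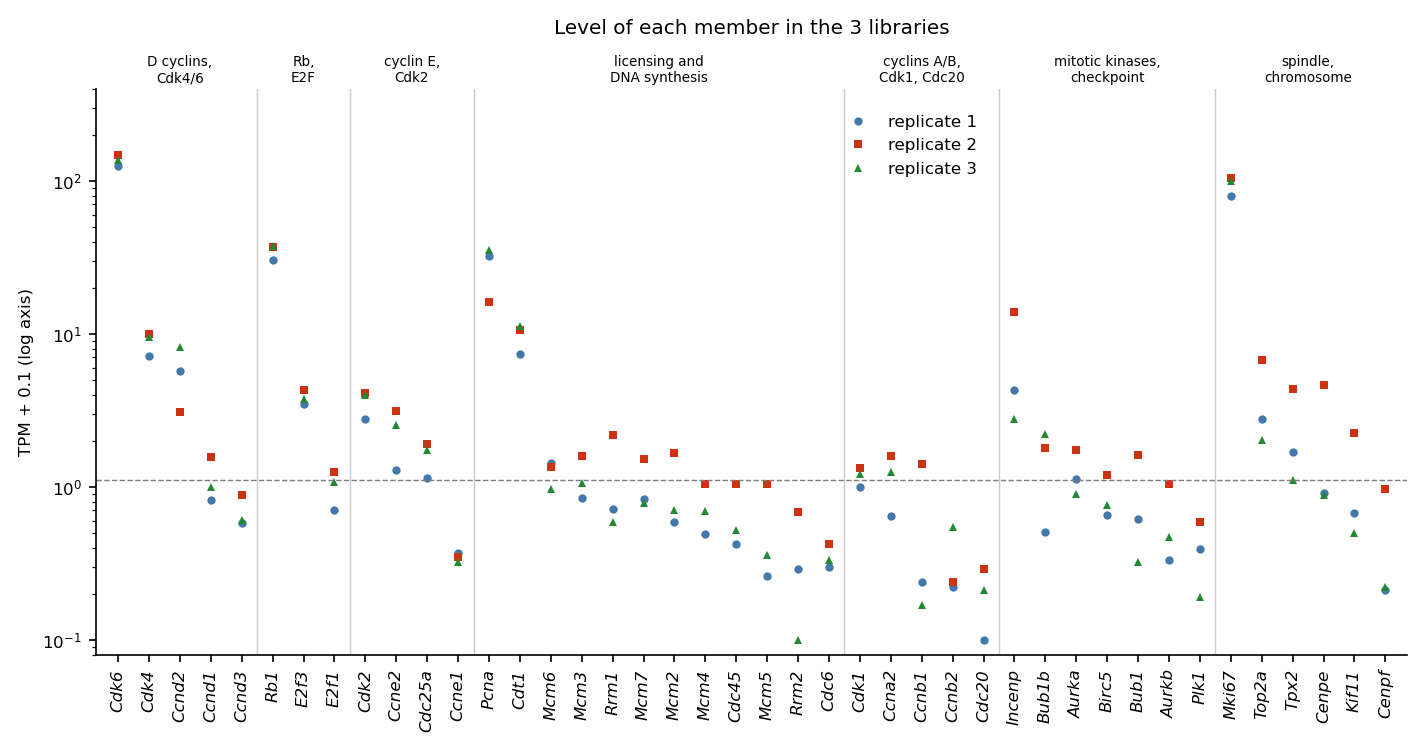
TPM + 0.1 on a log axis for each of the 42 genes (columns, grouped by role and ordered by mean level) in replicates 1, 2 and 3 (circles, squares, triangles), with the dashed line at a TPM of 1. Cdk6, Mki67, Rb1 and Pcna stand at the top, and the squares of replicate 2 lie above the other libraries for most genes of mitosis.

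The promoters of the genes were read from RefSeq (GRCm38.p6), where 33 of the 42 had an entry starting within 1000 bases of the annotated start. In the 250 bases before the start, on both strands, matches were counted to 4 motifs: the CCAAT box as CCAAT itself, the CHR as TTTGAA and in its other form as TTCGAA, the E2F site as TTCGCGC and in its other forms as TTGGCGC and likewise as TTCCCGC, and the GC box written as GGGCGG. Matches of different motifs may share bases, but CCAAT boxes and CHRs shared bases in 0 of the 33 promoters, as did GC boxes and E2F sites. Below are the 2 genes with the highest levels among those with both a CCAAT box and a CHR, Mki67 and Top2a, and the 2 highest with an E2F site, Mki67 again and Cdk2. They are shown as examples of how the motifs are placed, and capitals mark CCAAT boxes, CHRs and E2F sites on either strand.
Mki67 promoter, chr7:135716380-135716572, minus strand: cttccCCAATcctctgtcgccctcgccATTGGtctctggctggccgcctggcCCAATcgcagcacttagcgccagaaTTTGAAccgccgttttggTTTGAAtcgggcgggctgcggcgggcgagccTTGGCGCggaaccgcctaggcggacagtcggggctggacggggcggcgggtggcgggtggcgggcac
Top2a promoter, chr11:99024190-99024421, minus strand: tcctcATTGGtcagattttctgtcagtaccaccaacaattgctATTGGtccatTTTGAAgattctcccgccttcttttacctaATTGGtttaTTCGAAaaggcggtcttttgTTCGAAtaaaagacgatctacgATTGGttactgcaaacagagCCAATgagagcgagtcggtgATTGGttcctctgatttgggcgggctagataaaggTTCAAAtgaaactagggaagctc
Cdk2 promoter, chr10:128705052-128705179, minus strand: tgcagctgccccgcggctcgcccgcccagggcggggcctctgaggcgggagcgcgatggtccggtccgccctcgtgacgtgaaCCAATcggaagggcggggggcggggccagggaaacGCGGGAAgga
The Mki67 stretch holds 3 CCAAT boxes, at 188, 166 and 141 bases before the start, 2 CHRs at 116 and 98 bases and 1 E2F site at 67 bases. Top2a has 6 CCAAT boxes and 4 CHRs, and no E2F match. In Cdk2 there is 1 CCAAT box at 45 bases and an E2F site at 10 bases, and a further E2F site at 140 bases lies beyond the stretch shown, which was kept clear of exons.

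CCAAT boxes were found in 25 of 33 promoters (75.8%), beside 36.2% of 14468 coding promoters and 34.9% of the 5810 whose genes were at a TPM of at least 1. CHRs were found in 10 (30.3%, beside 14.4% of all and 11.8% of those 5810), and all 10 promoters with a CHR had a CCAAT box too (30.3%, beside 5.53% and 4.54%). E2F sites were found in 10 (30.3%, beside 9.68% of all and 13.3% of those 5810) and GC boxes in 25 (75.8%, beside 47.7% and 62.9%). The later genes, from cyclin A to the spindle, and the earlier ones, from the D-type cyclins to DNA synthesis, differed in their mix. Among 14 later genes, 13 had a CCAAT box, 7 a CHR and 3 an E2F site, and among 19 earlier genes 12, 3 and 7 did. A list of 36 other mitosis genes gave 20 CCAAT boxes, 9 CHRs and 2 E2F sites over 29 promoters. These matches are descriptions of sequence and do not show that a factor was bound.

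**Figure D2:**
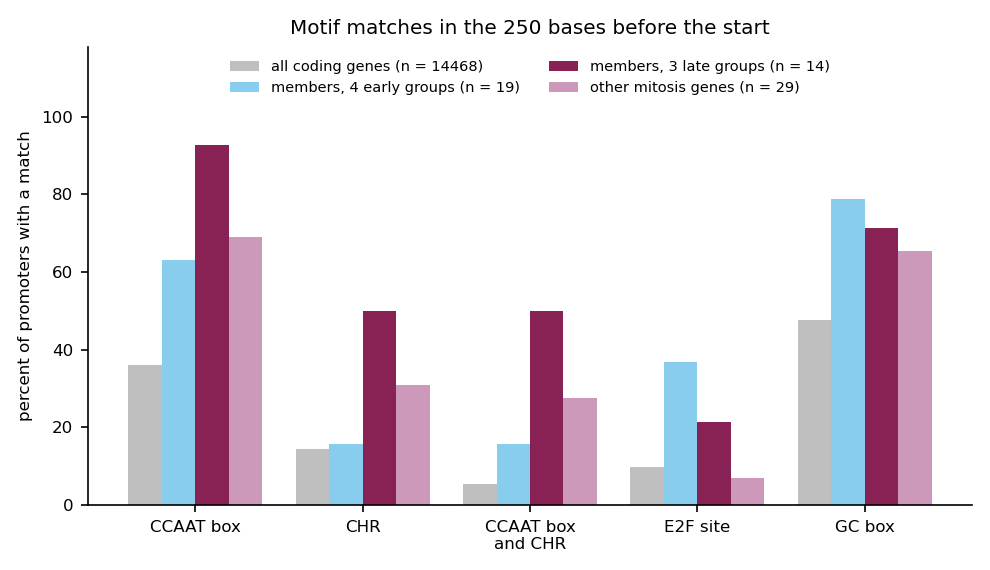
Percent of promoters with at least 1 match to each motif in the 250 bases before the start, for all coding genes, the earlier and the later cell cycle genes and the other mitosis genes. CCAAT boxes were in 92.9% of the later and 63.2% of the earlier promoters, and CHRs in 50% and 15.8%.

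Among the D-type cyclins and their kinases, Cdk6 was the highest of all 42 genes by TPM. It was at 125, 147 and 136 in replicates 1, 2 and 3, a mean of 136 ± 11.3 (SD, n = 3). Of that mean, 73.8 was Cdk6-203, an isoform of 697 bases with 628, 613 and 552 of the gene's 3869, 5067 and 4584 counts. By CPM, which is not scaled by length, Mki67 was above Cdk6, at 1068, 1128 and 1043 against 290, 330 and 290. Cdk4, the close relative of Cdk6, was at a TPM of 7.04, 9.85 and 9.49. The 2 kinases thus differed far beyond the spread of either, with no overlap between them. Of their partners, cyclin D2 (Ccnd2) was at 5.64, 2.97 and 8.05, lowest in replicate 2, where it was at least 1.5-fold below both other libraries. Cyclin D1 (Ccnd1) was at 0.72, 1.46 and 0.89 and cyclin D3 (Ccnd3) at 0.48, 0.79 and 0.51, so both lay below every value of Ccnd2. The longest exon block of Cdk6, 10364 bases and 74.1% of its exonic length, is the longest of the 42. The exons of Cdk6 overlap Gm17590 on the other strand and those of Cdk4 overlap Tspan31. Whether the counting used strand is not stated in the labels or headers, so reads of overlapping genes cannot be told apart. In all, 14 of the 42 genes have an exon overlap with another gene on either strand, and that of Top2a, with Gm23451, is on the same strand only.

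Rb1, which encodes the Rb protein and is the main brake on E2F, was at a TPM of 30.2, 36.6 and 37.1. The activator genes E2f3 and E2f1 were far lower, E2f3 at 3.36, 4.20 and 3.66 and E2f1 at 0.60, 1.15 and 0.98. Brake and activators thus did not overlap in any library. Further inhibitors come from a list of 9 CDK inhibitors and pocket proteins, of which 4 reached a TPM of 1 in every library. The gene for p21, Cdkn1a, stood alone at 99.6, 152 and 130. Cdkn1b, which encodes another inhibitor of Cdk2, was at 4.17, 5.87 and 7.49. The Rb relatives Rbl2 and Rbl1 were at 4.95, 8.30 and 5.51 and at 1.52, 2.29 and 2.53, and these 4 are the ones that reached the level. Cdkn1c, Cdkn2a, Cdkn2b, Cdkn2c and Cdkn2d, the last 4 from the INK4 family and its ARF locus, stayed between 0 and 0.88 in all libraries. In the list of 15 E2F, DREAM and late transcription factors 8 passed, led by the repressor E2f8 at 20.5, 23.4 and 25.4 and the DREAM core gene Lin9 at 7.41, 13.3 and 9.68, with E2f2 lowest at 0.26, 0.60 and 0.29. By the second estimate 14 of the 15 passed, and E2f7, a relative of E2f8 named after its values were seen, was at 34.7, 41.2 and 32.2, above E2f8 at a mean of 29.6, against 0.12, 0.73 and 0.43 in the gene table. The other lists gave 4 of 9 CDK inhibitors and pocket proteins, 31 of 45 replication genes, 22 of 36 mitosis genes, 12 of 12 APC/C genes and 9 of 9 cohesin genes in the second tables.

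Cdk2, which drives S phase with cyclin E, was at 2.68, 4.03 and 3.90. Cyclin E2 (Ccne2) was at 1.19, 3.04 and 2.42 and Cdc25a, the phosphatase that activates Cdk2, at 1.04, 1.80 and 1.63. All 3 of these genes were lowest in replicate 1, where coding genes in general were low too. Relative to each gene's own mean, the median of coding genes with enough counts was 81.9%, 114% and 103% in replicates 1, 2 and 3. Cyclin E1 (Ccne1) had 2, 4 and 3 counts and a TPM of 0.27, 0.25 and 0.22, close to the floor.

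Origins are licensed when Cdc6 and Cdt1 load the Mcm2 to Mcm7 helicase, which Cdc45 later helps to activate. Pcna, the sliding clamp of DNA polymerases, and Cdt1 were the 2 of these 12 genes at a TPM of at least 1 throughout. Pcna was at 32.0, 16.0 and 35.0, lowest in replicate 2 by more than 1.5-fold. Cdt1 was at 7.27, 10.5 and 11.1. Its partner Cdc6 was near 0, at 0.20, 0.32 and 0.23, so the 2 loaders were unlike in level. The 6 Mcm genes had mean TPM from 0.453 (Mcm5) to 1.14 (Mcm6), and none passed the level in all libraries. Ribonucleotide reductase makes the building blocks of DNA: its large subunit Rrm1 was at 0.62, 2.08 and 0.49 and its small subunit Rrm2 at 0.19, 0.58 and 0.00, with 2, 13 and 0 counts. Taken at the floor of 3 counts, the 0 in replicate 3 allows up to 0.190 CPM. In the list of 45 other origin, replisome and nucleotide genes 17 passed, led by the polymerase subunit Pold3 at 25.8, 25.4 and 31.8 and the origin recognition subunit Orc4 at 22.3, 27.3 and 26.7, with Rpa3 lowest at 0, 0.14 and 0.

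None of the 5 genes for cyclin A, cyclin B, their kinase Cdk1 and the activator of the anaphase-promoting complex (APC/C) Cdc20 was at a TPM of 1 in every library. Cdk1 came closest, at 0.89, 1.23 and 1.11, and cyclin A2 (Ccna2) was at 0.54, 1.48 and 1.15. Cyclin B1 (Ccnb1) had 4, 25 and 1 counts, with exact 95% Poisson intervals of 1.09 to 10.2, 16.2 to 36.9 and 0.0253 to 5.57 that cover counting error only. The interval of replicate 2 lay clear of both others. Cyclin B2 (Ccnb2) had 3, 3 and 10 counts and Cdc20 0, 5 and 3, and the 0 in replicate 1, taken at the floor of 3 counts, allows up to 0.225 CPM. The APC/C itself was well represented, with 11 of 12 subunit and Fzr1 genes at a TPM of 1 throughout, Anapc1 (17.0, 30.2 and 27.2) and Cdc27 (23.0, 25.7 and 24.2) highest and Anapc10 (0.66, 0.98 and 1.00) lowest. Cohesin genes passed in 9 of 9 cases, from Stag1 at 47.4, 51.9 and 54.0 and Pds5a at 40.9, 53.4 and 44.0 down to Smc3 at 3.39, 3.82 and 4.31.

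The mitotic kinases were low: Aurka was at 1.03, 1.63 and 0.80, Aurkb at 0.23, 0.94 and 0.37 and Plk1 at 0.29, 0.49 and 0.09. Bub1 and Bub1b, which encode checkpoint proteins that watch kinetochores, were at 0.52, 1.51 and 0.22 and at 0.41, 1.70 and 2.10. By TPM both were unsteady between libraries, in different ways, since Bub1b was as high in replicate 3 as in replicate 2 while Bub1 was not. By CPM Bub1b was steadier, at 1.95, 2.87 and 2.47, against 1.35, 3.13 and 0.759 for Bub1. The coding isoform Bub1b-201 was at a TPM of 0.41, 0.71 and 0.55. The rest of the TPM of Bub1b was in isoforms of 385 to 661 bases, with at most 4 counts each in any library. Incenp and Birc5 belong with Aurkb to the chromosomal passenger complex. In the gene table Incenp stood above its partners in every library, at 4.16, 13.7 and 2.67 against 0.55, 1.10 and 0.66 for Birc5. It was the only gene of this group of 7 to pass the level throughout. The second tables gave another order, with Birc5 at 7.36, 9.55 and 8.79 and Incenp at 4.11, 10.9 and 3.39. Birc5 was thus the higher in replicates 1 and 3 there, and 4 of the 7 genes passed.

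Mki67, whose protein coats mitotic chromosomes and is the usual marker of cycling cells, was at a TPM of 79.1, 105 and 99.7, from 14230, 17323 and 16488 counts, and its mean of 94.5 ± 13.6 (SD, n = 3) was above that of 98.0% of nuclear coding genes. Top2a, the topoisomerase that untangles sister chromosomes and is often read beside Mki67, was at 2.67, 6.68 and 1.92, from 138, 377 and 97 counts. Mki67 was thus the high gene of its group in all libraries, with no overlap. The kinetochore genes Cenpe and Cenpf were at 0.81, 4.55 and 0.78 and at 0.11, 0.86 and 0.12. The spindle motor Kif11 was at 0.57, 2.14 and 0.40 and the spindle factor Tpx2 at 1.60, 4.27 and 1.01. Apart from Mki67, all 5 were highest in replicate 2 by more than 2-fold. The longest exon block of Mki67, 6836 bases and 67.9% of its exonic length, is second only to that of Cdk6 among the 42, and its exons overlap no other gene. In the list of 36 other mitosis genes 9 passed, led by the condensin subunit Smc4 at 19.5, 28.0 and 23.5 and the checkpoint gene Mad2l1 at 13.1, 26.4 and 16.1, with Ube2c lowest at 0, 0.27 and 0.16.

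By TPM in the gene table, the libraries differed most in the genes of DNA synthesis and mitosis. Of the 36 genes with a mean of at least 10 counts, 30 (83.3%) had their highest TPM in replicate 2, beside a background of 61.9% of 10376 coding genes, while 5 were highest in replicate 3 (background 32.2%) and 1 in replicate 1 (background 5.86%). The background for replicate 2 varied little with level, at 61.8% for coding genes with a mean TPM from 0.1 to 1, 63.3% from 1 to 10 and 60.0% above. In 12 (33.3%) replicate 2 was at least 2-fold above both other libraries, beside a background of 4.60%. These were Cdc45, Mcm2, Mcm5 and Rrm1 of DNA synthesis, Ccnb1, Bub1 and Incenp, and Kif11, Tpx2, Cenpe, Cenpf and Top2a. Of these, Mcm5 (8, 33 and 5 counts) and Ccnb1 (4, 25 and 1) passed the filter of 10 counts only through replicate 2. The background genes were held to the same filter. In the opposite direction, Ccnd2 and Pcna were at least 1.5-fold lower in replicate 2 than in both others (5.56%, beside a background of 1.96%). Relative to each gene's own mean over the libraries, the median of the 36 was 70.3%, 140% and 88.5% in replicates 1, 2 and 3, beside 81.9%, 114% and 103% for the coding genes. The 6 spindle and chromosome genes had the widest split, at 62.4%, 196% and 41.3%, and the 5 D-type genes and 3 Rb and E2F genes were near the coding genes, at 80.9%, 112% and 100% and at 87.2%, 112% and 107%.

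**Figure D3:**
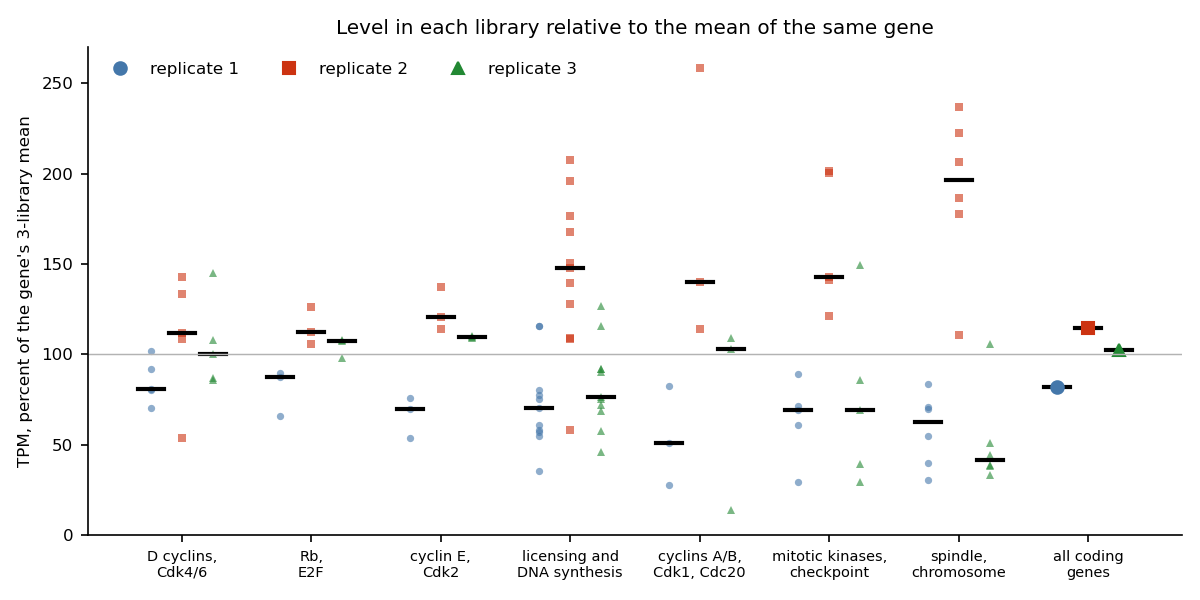
TPM in each library as a percent of the same gene's mean over the 3 libraries, for the 36 genes with a mean of at least 10 counts (points) in 7 role groups, with black bars at the group medians and, at the right, the medians of 10376 coding genes. The median of replicate 2 is 112% in the D-type group, 196% in the spindle and chromosome group and 114% over the coding genes.

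The pathway lists, which share no gene with the 42, also differed between libraries. Of the other mitosis genes with enough counts 29 of 30 were highest in replicate 2, and 16 of them by 2-fold. For the other replication genes these numbers were 24 and 4 of 31, and for the E2F and DREAM list 11 and 2 of 15. For the APC/C they were 8 and 0 of 12, for cohesin 4 and 0 of 9 and for the CDK inhibitors and pocket proteins 3 and 0 of 6. The order of the libraries depended partly on the scale. With CPM in place of TPM 30 of the 36 were highest in replicate 2 (background 55.5%), with TPM rescaled over coding genes 25 (47.1%) and by the second estimate 27 (65.3%). By the 2-fold measure 10 (background 2.56%), 11 (2.78%) and 8 (2.32%) stood out on those scales. Bub1, Cenpe, Cenpf and Kif11 did so on all 4 scales, as did Ccnb1 and Mcm5, which passed the count filter only through replicate 2. Incenp did not stand out by CPM, where it was at 9.09, 15.7 and 6.26. Top2a did not after rescaling or in the second tables, where its TPM was 9.92, 15.6 and 8.76. Mcm2, Rrm1 and Tpx2 did so neither by CPM nor in the second tables, and Cdc45 did not in the second tables. There Rrm1 was highest in replicate 3, at 9.03, 12.5 and 13.6. Of the 11 DNA synthesis genes with enough counts, 6 were highest in replicate 2 in the second tables, and 1 by 2-fold. Birc5 and Cdk1 did so by CPM alone, and Aurka in the second tables alone. Cdk1, with 9, 33 and 8 counts, also passed the count filter only through replicate 2. These are descriptions of 3 libraries with no test. Replicate 2 was also the library with the smallest amount of starting RNA, and 7 of 8 macrophage markers were highest in it, as was the share of TPM in coding genes, at 23.9% against 19.0% and 22.5%. The part of these in the result was not tested. In RNA from whole populations, fewer cells of a type and less RNA per cell cannot be told apart.

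Transcripts of 2 annotated classes were then compared within each gene, since the chromatin fraction holds RNA whose introns have not all been removed. The GENCODE annotation calls some transcripts of coding genes retained-intron isoforms. For each gene and library, the TPM of all its retained-intron isoforms plus 0.5 was divided by that of all its coding isoforms plus 0.5, and limma tested whether the mean log2 of this ratio differed from 0. Both classes exist for 33 of the 42 genes. Of these, 19 reached a mean summed TPM of 1 and were tested, and 14 did not. Mki67, Top2a, E2f1, E2f3, Ccne2, Ccnb2, Mcm4, Plk1 and Birc5 lack one of the classes.

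Retained-intron isoforms were higher in 5 of the 19 genes, beside a background of 35.5% of 5601 genes, and coding isoforms in 6, beside 31.9%. With 26.3% and 31.6% of the genes tested, neither share stood above the background. The median log2 ratio was -0.09 over the 19 and 0.08 over all genes tested. The p-values measure only the spread between these 3 libraries.

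The 5 genes with higher retained-intron isoforms were Cdt1, Pcna, Cdk4, Cdk1 and Ccnd2. For Cdt1 the log2 ratio was 1.13, 1.86 and 1.42 in replicates 1, 2 and 3, a mean of 1.47 (SE 0.21, limma adjusted p = 0.000318), and retained-intron isoforms held 72.1% of its TPM. Pcna gave 1.68, 0.89 and 1.55, a mean of 1.37 (SE 0.19, limma adjusted p = 0.000272). Cdk4 was the steadiest, at 1.04, 1.00 and 0.95, a mean of 0.99 (SE 0.18, limma adjusted p = 0.00142). The calls for Cdk1 (0.90, SE 0.29, limma adjusted p = 0.0222) and Ccnd2 (0.62, SE 0.21, limma adjusted p = 0.0288) were above 0 in all 3 libraries but nearer the threshold. That of Cdk1 rested on very few reads. None of its 4 retained-intron isoforms, of 378 to 770 bases, had more than 3 counts in any library. The coding isoform Cdk1-201, of 4375 bases, had 5, 27 and 2. TPM divides by length, so in replicate 2 the ratio was above 0 although most counts were coding. The same held for Ccnd2 in replicate 3. There its retained-intron isoform Ccnd2-208, of 3506 bases, had 258 counts, and the coding Ccnd2-201, of 6330 bases, had 299. These 2 isoforms had 217 and 212 counts in replicate 1, and 113 and 97 in replicate 2. The ratio of Cdk1, too, depended on the 0.5 added, and was 1.71 with 0.1. The second transcript tables turned both Cdk1 and Ccnd2 to the coding side, at -3.61 and -0.74.

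For the 3 genes with the lowest adjusted p on the retained-intron side, 1 of the introns kept by their isoforms is shown, as an example of splice sites that the retained-intron isoform does not use. Each line gives the donor site, 10 exon bases before the intron and its first 10 bases, and then the acceptor site, the last 18 bases of the intron and 10 exon bases, with the GT and AG that bound the intron in capitals (GENCODE M21 transcripts, mm10).
Cdt1-205 donor, chr8:122570102-122570193, plus strand: tgatgcgcaaGTgagtggtg
Cdt1-205 acceptor: ctgccctctctcccatAGgcgctttgaa
Pcna-202 donor, chr2:132251439-132251690, minus strand: tggaatcccaGTgagttacc
Pcna-202 acceptor: taacttgtgggtttacAGgaacaggagt
Cdk4-203 donor, chr10:127064454-127064584, plus strand: atgttgtacgGTgagaaggt
Cdk4-203 acceptor: atcatttgttcttctcAGgctgatggat
These introns have 92, 252 and 131 bases. Cdt1-205 was at a mean TPM of 3.71 ± 1.11 (SD, n = 3), against 2.17 ± 0.521 for the coding isoform Cdt1-201. Pcna-202 was at 10.1 ± 3.20, against 6.36 ± 1.20 for Pcna-201. Cdk4-203 was at 3.08 ± 0.242, and the coding isoforms Cdk4-204 and Cdk4-201 were at 1.5 ± 0.430 and 1.02 ± 0.117. All 3 introns begin with GT and end with AG.

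Coding isoforms were higher for Cdk6 by the widest margin, with log2 ratios of -2.68, -2.31 and -2.93 in the 3 libraries, a mean of -2.64 (SE 0.16, limma adjusted p = 2.81e-06). Most of this was Cdk6-203, a coding isoform of 697 bases at a TPM of 73.8 ± 6.37 (SD, n = 3). The 4 called genes of the spindle and chromosomal passenger groups were also on the coding side, where 31.9% of all genes tested were called. Bub1b and Aurka, tested in the same groups, were at 0.13 and 0.06 and were not called. Cenpe had a mean of -1.33 (SE 0.22, limma adjusted p = 0.000888) and Kif11 of -0.90 (SE 0.28, limma adjusted p = 0.0217). Tpx2 was at -0.87 (SE 0.31, limma adjusted p = 0.0362) and Incenp at -0.72 (SE 0.20, limma adjusted p = 0.0129). Cyclin D1 was also called, at -0.73 (SE 0.24, limma adjusted p = 0.0261). In the second tables Kif11 was at -0.33, Ccnd1 at -0.43 and Incenp at 0.019, with limma adjusted p of 0.238, 0.0585 and 0.923, so these 3 calls were lost there. The sizes for genes with little retained-intron RNA depend on the 0.5 added: Cenpe had retained-intron TPM of 0, 1.14 and 0, and with 0.1 added its ratio was -2.61. In the same way Kif11 became -1.63, Ccnd1 -1.31 and Tpx2 -1.61, the last no longer called (limma adjusted p = 0.0571). For Rb1 the 2 classes were near equal, at 17.8 and 16.8 TPM with a ratio of -0.09 (SE 0.15), and the remaining 7 genes, Cdk2, Cdc25a, Bub1b, Aurka, Mcm6, Rrm1 and Mcm3, did not pass the test either. Of the pathway lists, other replication genes had 9 on the retained-intron side and 2 on the coding side of 19 tested, and other mitosis genes 2 and 4 of 13. The numbers were 4 and 1 of 8 for the APC/C, 1 and 3 of 6 for cohesin, 3 and 2 of 9 for the E2F and DREAM list and 0 and 1 of 2 for the CDK inhibitors and pocket proteins.

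**Figure D4:**
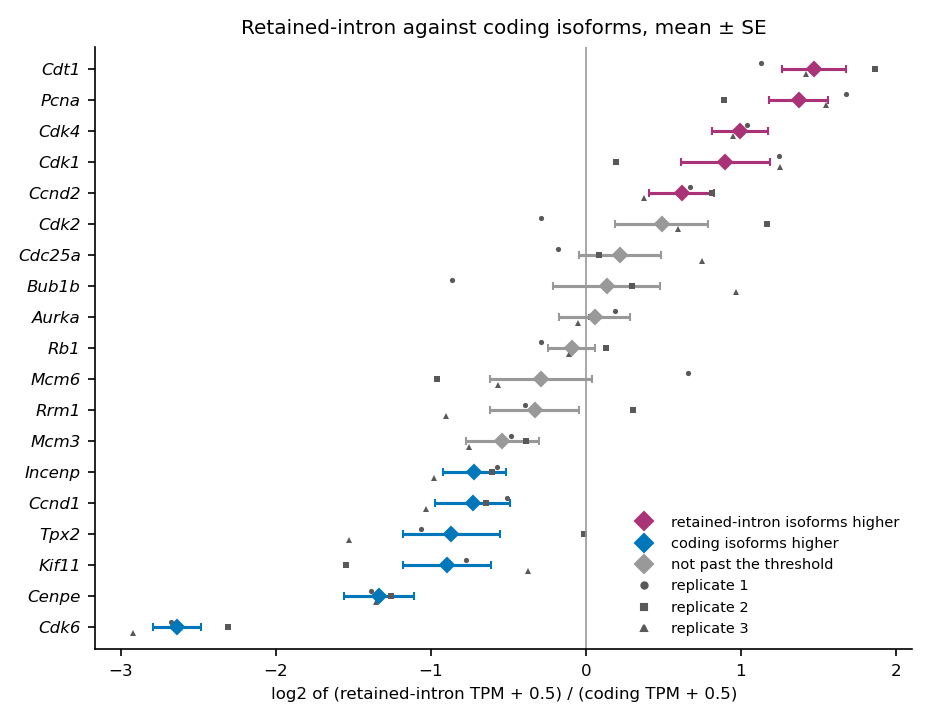
log2 of the summed TPM + 0.5 of retained-intron over coding isoforms for the 19 genes tested, as mean ± SE from limma (diamonds) with each library's value (small symbols). Cdt1, Pcna, Cdk4, Cdk1 and Ccnd2 lie above 0 and Cdk6 lies furthest below, at -2.64.

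Several of these calls rested on single libraries. Without replicate 1 there were 4 retained-intron and 4 coding calls, without replicate 2 there were 3 and 2, and without replicate 3 there were 3 and 3. Ccnd2 lost its call without any 1 of them, with limma adjusted p of 0.097, 0.0964 and 0.0505 without replicates 1, 2 and 3. Without replicates 1 and 3 in turn, Cdk1 was at limma adjusted p of 0.111 and 0.105, Ccnd1 at 0.0524 and 0.156 and Tpx2 at 0.0961 and 0.2. Incenp was at 0.05 and 0.0764 by limma without replicates 2 and 3. Without replicate 2, Cdk1, Ccnd1, Kif11 and Cenpe fell under the level filter and were not tested. Cdt1, Pcna, Cdk4 and Cdk6 kept their calls without any 1 library. Counted as a mean per annotated transcript instead of as a sum, 6 of the 11 calls were lost. Cdt1 was then at 0.08, Pcna at -0.13 and Cdk6 at -0.34, with limma adjusted p of 0.725, 0.533 and 0.0783. Cdk1 was at 0.30, Incenp at -0.27 and Tpx2 at -0.08, with limma adjusted p of 0.1, 0.189 and 0.767.

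The level of some genes depended on which tables were read. By the second estimate 41 of the 42 were higher, by a median of 1.85-fold, and Incenp was the exception. Higher values there were not particular to these genes. Of all nuclear coding genes, 50.0% reached a TPM of 1 in every library there, against 35.8% in the gene table. The mean TPM was at least 3-fold higher for 11 genes: Ccnd2, E2f1, E2f3, Ccne1, Rrm1, Cdk1, Cdc20, Aurkb, Birc5, Tpx2 and Top2a. Cyclin E1 differed most, at 6.17 against 0.247, with 5.69 of the former in Ccne1-202, an isoform of 656 bases annotated for nonsense-mediated decay. Cdk1 was at 13.4 against 1.08, with 12.2 in Cdk1-207, a coding isoform of 695 bases that the first tables had at 0. Birc5 was at 8.57 against 0.770, with 8.44 in Birc5-202, and E2f3 was at 19.6 against 3.74, with 15.1 in E2f3-202, an isoform of 389 bases that the first tables also had at 0. The 4 highest genes moved little by comparison, Mki67 to 96.7, Cdk6 to 154, Rb1 to 40.0 and Pcna to 43.4. In 34 of the 42 genes the highest library was the same in both sets. For this count, and for those of higher and 3-fold higher genes, the share over all coding genes was not computed.

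**Figure D5:**
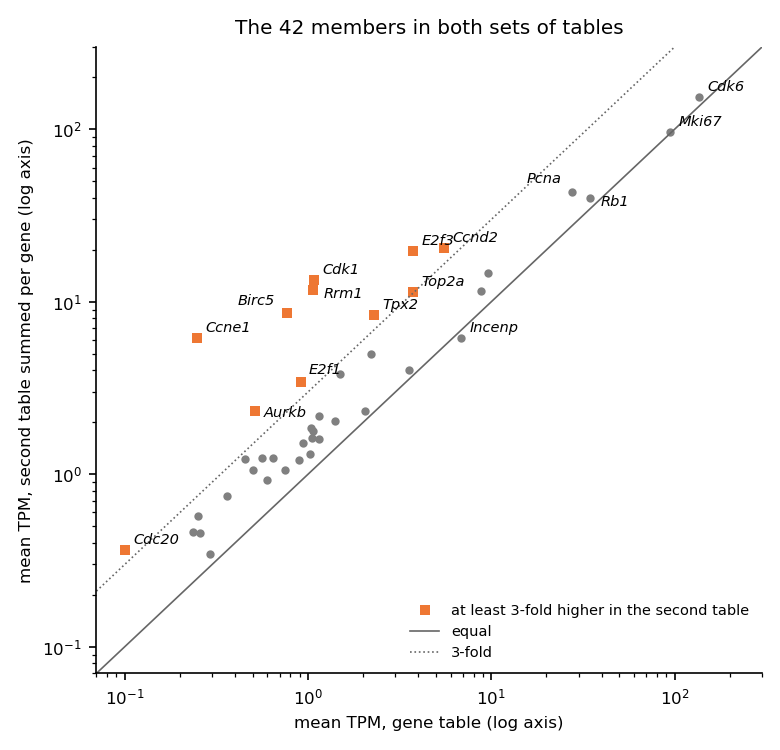
Mean TPM of the 42 genes in the gene table (x axis) and in the second transcript table summed per gene (y axis), both on log axes, with lines at equality and at 3-fold. The 11 genes marked by squares are at least 3-fold higher in the second table, and Ccne1, Cdk1, Birc5 and Rrm1 lie furthest from equality.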

How the data were processed

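Total RNA-seq was made from RNA of the chromatin fraction depleted of ribosomal RNA, in 3 libraries of 1 group, per the labels. Per the file headers, the authors deposited 3 tables for each library: genes and transcripts, both giving expected counts and TPM under RSEM's column names, and transcripts again, giving estimated counts and TPM under kallisto's column names. The posterior SD of each count in the deposited tables was kept but enters no printed value. The assembly was mm10 per the labels and the annotation GENCODE M21 per the deposited text files. Programs, versions and strand: not given in the sources used here. Replicates were not pooled. TPM was used as deposited, and it is a share of all rows, so short noncoding RNAs lower every coding gene alike.

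Rows naming no gene (1.40%, 0.352% and 0.354% of the counts of replicates 1, 2 and 3) stayed out of gene totals. The libraries differed beyond sampling noise, with a chi-square per degree of freedom of 36.9 for replicates 1 and 2, 15.3 for 1 and 3 and 36.9 for 2 and 3. CPM was computed over gene rows. Intervals of counts are exact Poisson, and reads are not independent molecules.

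Isoform ratios were fitted with limma 3.58.1 in R 4.3.3 (intercept only, empirical Bayes with a trend on the mean summed TPM) over the 5601 genes that have both classes and whose sum over them averages at least 1 TPM, with Benjamini-Hochberg adjustment and a threshold of 0.05. On simulated data for 5529 genes the isoform test recovered 64.2% of 67 changes of 1 on the log2 scale and 100% of those of 2 and 3, and 3.3% of its calls were false. The simulation gave every gene the same relative spread between libraries beyond counting and few genes a true change. It held no error in assigning reads to isoforms, so these rates may not hold for the real libraries. The 42 genes, their role groups, the 6 pathway lists, the marker lists and the motifs were chosen with earlier results of these data known. The naming rule covered all 42 genes, the 2 highest and the lowest gene of each pathway list, all CDK inhibitors and pocket proteins, and the highest and lowest marker of each list, of which a selection is named. Alternatives were the second table, other pseudocounts, filters and scalings, and leaving out each library. Python 3.11.15, numpy 2.4.6, pandas 2.3.3, scipy 1.17.1 and matplotlib 3.10.9 were used.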

Additional observations from a re-analysis of the deposited data

How the results depend on the processing

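The median log2 level of the 42 genes, 0.98 as reported, was 1.71 in the second tables, 1.81 as log2(CPM + 1), 0.067 with a pseudocount of 0.1, 2.43 after rescaling TPM over coding genes and 2.83 over the detected genes alone, and ranged from 0.81 to 1.10 when 1 library was left out. The 14 detected genes became 26 in the second tables, 24 at a TPM of 0.5, 6 at a TPM of 5 and 33 at 10 counts in every library, and 14 to 17 with 1 library left out. The 5 genes with higher retained-intron isoforms became 9 in the second tables and 2 per annotated transcript, and 3 to 4 with 1 library left out. The 6 with higher coding isoforms became 10 with no filter on low values and 2 at a summed TPM of at least 5, where fewer genes were tested, and 2 to 4 with 1 library left out. The ratio of Pcna turned to -0.13 per annotated transcript. In the second tables Cdk1 turned to -3.61, Ccnd2 to -0.74, Rb1 to 0.46, Rrm1 to 3.45 and Incenp to 0.019, and the cause was not tested. The counts of genes highest in replicate 2 were compared across scalings that were chosen after seeing the data. No paired analysis was possible because there is 1 group. Depth limits the genes near the floor: 9 of the 42 had under 10 counts in at least 1 library. With 3 libraries and no unstimulated cells, no change on stimulation can be read.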
